A study of Homo sapiens with 2 samples.

Results

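The genes described here are 10 feedback genes of the ERK pathway: the phosphatase genes DUSP4, DUSP5 and DUSP6, the Sprouty genes SPRY2 and SPRY4, the Sprouty-related genes SPRED1 and SPRED2, the transcription factor genes ETV4 and ETV5, and PHLDA1. They were taken by Entrez ID from a table of 16399 genes, and all 10 were found. The cells were A549, a long-established line from a human lung adenocarcinoma, grown in DMEM with serum, and their transcripts were counted by RNA sequencing. The vector group was 1 culture carrying the vector and the PKP2 group was 1 culture in which plakophilin 2, a protein of the desmosomal plaque, was overexpressed with an SFB tag, both at passage 5. Whether each culture was a pool or a clone is not given in the sources used here. The series was made to look for genes downstream of PKP2.

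In the ERK pathway, growth factor receptors activate RAS, which switches on the kinases RAF, MEK and ERK in turn. ERK then raises the transcription of its own inhibitors. Dual-specificity phosphatases (DUSPs) remove the activating phosphates from ERK, while Sprouty and SPRED proteins act further up, between the receptor, RAS and RAF. ETV4 and ETV5 are ETS factors of the PEA3 group, which the repressor CIC holds down until ERK inactivates it. Levels of these transcripts are widely read as a measure of ERK output in tumour cells with an active RAS pathway.

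Each group had 1 library, so the differences have no replicate check, and what is compared is this pair of libraries rather than the conditions. The vector library held 16996976 estimated counts and the PKP2 library 16808842. Levels are given as CPM, counts per 1000000 of a library's total. PKP2 itself went from 27.3 CPM (vector) to 268 CPM (PKP2), a CPM ratio of 9.82 (95% counting interval 8.92 to 10.8). Of the A549 markers, 8 of 9 were analysed and all 8 reached 1 CPM in 1 or both libraries, EPCAM at only 1.47 and 1.37 CPM. CDKN2A, deleted in this line, was not analysed here. Of 10 markers of blood, endothelial and fibroblast cells, 4 were analysed, and their sum was 9.29 CPM (vector) and 11.8 CPM (PKP2). VWF had 0 and 2 counts, and COL1A1 had 8.12 and 10.4 CPM.

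The promoter sequences of a few of these genes are shown because ERK acts on them through ETS factors, AP-1 and CIC. RefSeq windows on GRCh38.p14, from 250 bases before to 50 bases after a transcript start, were found for 6 of the 10 genes in 9 windows. DUSP4, DUSP5, ETV4 and ETV5 had no window, so their promoters were not searched for any motif. Each motif was searched on both strands. The CIC octamers TGAATGAA, TGAATGGA and TCAATGAA, and the ETS core with flanks CCGGAAGT, were in 0 of the 9 windows. Over all 35116 windows these motifs were present in 1.65%, 1.03%, 0.718% and 4.14%. The shorter ETS core CCGGAA, which the longer ETS motif contains, was in a window of SPRY2 and of PHLDA1, and in 17.2% of all windows. The AP-1 motif TGACTCA was in the SPRED2 window that is not printed here, from 6 bases before its start, and in 4.95% of all windows. Among the relatives of these genes, 11 of 13 had windows, 21 in all, and 1 window each of ETV1, SPRED3 and DUSP10 held a CIC octamer. It was TGAATGGA from 125 bases before the start in ETV1, TGAATGAA from 192 bases before it in SPRED3, and TCAATGAA after the start in DUSP10. Of the 21 windows, 4 held the short ETS core, in ETV1 and SPRY1, and 1 held the AP-1 motif, in SPRED3. The short ETS core and AP-1 were searched after the first windows had been seen. A match is a description of letters and not a site.

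The stretches below lie 5′ to 3′ on the gene's strand, before the start and outside the exons annotated in GENCODE release 29, with the searched motifs in capitals. SPRY2 and SPRY4 are shown as the Sprouty pair that lay lower together, SPRED2 as a member that did not lie lower, and ETV1 as the PEA3 relative with a CIC octamer.
SPRY2, chr13:80341127-80341376, minus strand: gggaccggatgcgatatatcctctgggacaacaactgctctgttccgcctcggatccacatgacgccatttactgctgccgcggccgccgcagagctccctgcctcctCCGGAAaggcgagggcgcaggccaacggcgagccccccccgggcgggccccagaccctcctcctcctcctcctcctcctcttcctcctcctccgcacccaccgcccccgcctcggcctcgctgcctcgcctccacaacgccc
SPRY4, chr5:142324418-142324497, minus strand: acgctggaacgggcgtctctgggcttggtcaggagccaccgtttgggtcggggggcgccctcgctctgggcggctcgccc
SPRED2, chr2:65432638-65432849, minus strand: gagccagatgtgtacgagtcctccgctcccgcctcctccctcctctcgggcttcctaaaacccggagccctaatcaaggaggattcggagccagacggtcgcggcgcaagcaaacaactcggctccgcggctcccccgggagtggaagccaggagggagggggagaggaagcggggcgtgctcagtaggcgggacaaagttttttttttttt
ETV1, chr7:13991426-13991675, minus strand: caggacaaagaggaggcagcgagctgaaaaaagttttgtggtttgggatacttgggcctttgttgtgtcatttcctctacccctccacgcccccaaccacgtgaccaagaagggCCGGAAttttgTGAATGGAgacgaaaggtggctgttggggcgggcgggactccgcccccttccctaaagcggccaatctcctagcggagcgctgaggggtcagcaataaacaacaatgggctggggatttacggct

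As a group the feedback genes lay slightly lower in the PKP2 library, none by as much as 1.5-fold. Of the 10 genes, 8 had a lower CPM in the PKP2 library, as did 50.3% of all expressed genes, and 6 had a 95% counting interval of the CPM ratio below 1: DUSP4, DUSP5, SPRY2, ETV4, ETV5 and PHLDA1. None had an interval above 1. These intervals cover counting error only and take each count as an independent read. Sequenced reads may include PCR copies, which would make the intervals too narrow. In RNA from a whole culture, fewer cells with a transcript and less of it per cell cannot be told apart. Among the 12820 expressed genes, those that reach 1 CPM in either library, 19.8% had an interval below 1 and 16.3% one above. At the feedback genes' own range of mean level, 20.3 to 498 CPM, 27.6% of 7534 genes had an interval below 1. The median difference of the feedback genes, PKP2 minus vector on the log2(CPM + 1) scale, was -0.14, against 0.00 over all expressed genes. In that range of level the genes ran from -0.34 at the 5th to 0.25 at the 95th percentile, and all 10 feedback genes lay inside it.

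**Figure D1:**
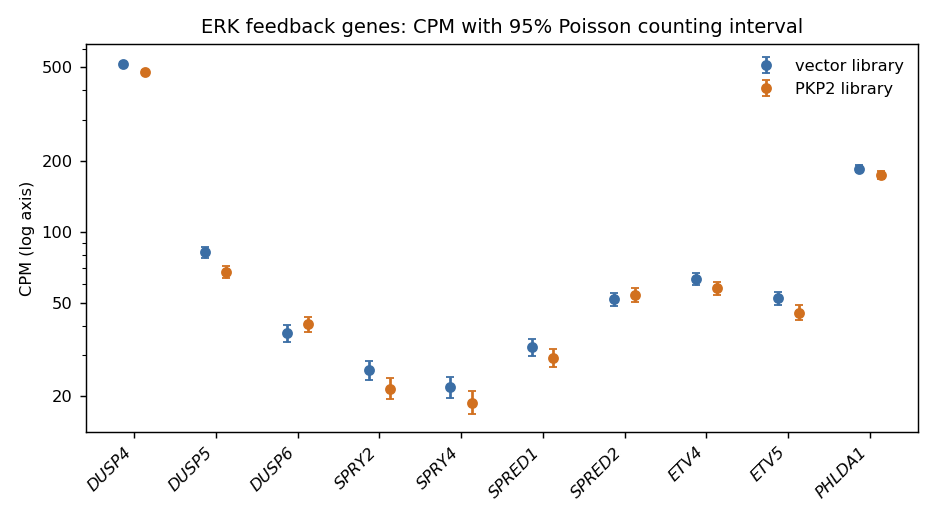
CPM (log axis) of each feedback gene in the vector and the PKP2 library, 1 point per library, with bars for the 95% Poisson counting interval. The PKP2 point is below the vector point for 8 genes and above it for DUSP6 and SPRED2.

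The phosphatases did not lie on the same side. DUSP4 (chromosome 8, 29333064 to 29350668, GENCODE on GRCh38), a nuclear phosphatase that ERK induces, had 8804 counts (518 CPM) in the vector library and 8026 counts (477 CPM) in the PKP2 library. Its ratio was 0.922 (0.894 to 0.9503), the narrowest interval of the 10 genes. DUSP5 (chromosome 10, 110497838 to 110511544), a nuclear phosphatase selective for ERK, had 1391 counts (81.8 CPM) and 1130 counts (67.2 CPM). At a ratio of 0.821 (0.759 to 0.889) it was the lowest of the 10 genes, and 11.4% of expressed genes had a lower ratio. DUSP6 (chromosome 12, 89347232 to 89353271), the cytoplasmic ERK phosphatase, went the other way, with 629 counts (37.0 CPM) and 679 counts (40.4 CPM). Its ratio of 1.09 had an interval of 0.978 to 1.22, which includes 1.

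A ratio of ratios between genes of the same libraries does not depend on how the libraries are scaled. The PKP2-to-vector ratio of DUSP6 was 1.33 times that of DUSP5 (exact 95% interval 1.16 to 1.52) and 1.18 times that of DUSP4 (1.06 to 1.33). That of DUSP4 was 1.12 times that of DUSP5 (1.03 to 1.22). The phosphatases therefore differed from each other by more than the counting error of independent reads, in intervals not adjusted for the 6 pairs compared within families.

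SPRY2 and SPRY4, adaptors that block signalling from receptors to RAS and RAF, both lay lower. SPRY2 (chromosome 13, 80335976 to 80340951) had 438 counts (25.8 CPM) in the vector library and 363 counts (21.6 CPM) in the PKP2 library, a ratio of 0.838 (0.727 to 0.965). SPRY4 (chromosome 5, 142310427 to 142326455) had 372 counts (21.9 CPM) and 316 counts (18.8 CPM), a ratio of 0.859 (0.737 to 1.00). The SPRY4 interval just includes 1, and SPRY4 was the least abundant of the 10 genes by count. The ratio of SPRY2 over that of SPRY4 was 0.976 (0.791 to 1.203), so a difference between them was not detectable at this depth.

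SPRED1 and SPRED2, which bring the RAS inactivator neurofibromin to the membrane, were not separable from equal levels. SPRED1 (chromosome 15, 38252326 to 38357249) was at 32.3 CPM (vector) and 29.1 CPM (PKP2, 489 counts), a ratio of 0.901 (0.796 to 1.02). SPRED2 (chromosome 2, 65310851 to 65432637) had 878 counts (51.7 CPM) and 905 counts (53.8 CPM), a ratio of 1.04 (0.949 to 1.15). The ratio of SPRED1 over that of SPRED2 was 0.864 (0.739 to 1.01). NF1, which encodes neurofibromin, had 157 CPM and a ratio of 0.889 (0.840 to 0.9397), but its difference was 0.04 once the trend with length and GC, described below, was taken out. It was chosen after its value had been seen.

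ETV4 and ETV5 were both lower, ETV4 by a margin that depends on the scaling. ETV4 (chromosome 17, 43527844 to 43579620) had 1072 counts (63.1 CPM) in the vector library and 969 counts (57.6 CPM) in the PKP2 library, a ratio of 0.914 (0.837 to 0.998). With the libraries scaled by the median log ratio, this interval includes 1. ETV5 (chromosome 3, 186046308 to 186110318) had 887 counts (52.2 CPM) and 762 counts (45.3 CPM), a ratio of 0.869 (0.787 to 0.958). Their ratios did not differ beyond counting error, that of ETV4 being 1.052 times that of ETV5 (0.922 to 1.201). ETV1, the other PEA3 factor, had 312 counts (18.4 CPM) and 244 counts (14.5 CPM), a ratio of 0.791 (0.666 to 0.938).

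The loci of both PEA3 genes are shared with other genes, and the strand setting of the counting is not given in the sources used here. ETV4 lies within DHX8, a helicase gene on the opposite strand, which had a ratio of 0.850 (0.788 to 0.917). ETV5 overlaps DGKG, a diacylglycerol kinase gene on the same strand, with a ratio of 0.826 (0.708 to 0.964). Both neighbours were chosen with their values known. DUSP6, SPRY4, ETV5 and PHLDA1 have annotated antisense genes, and SPRED2 has a sense intronic one, which were not analysed here. How such reads were divided was not tested. Of the 4 members that overlap no other gene (DUSP4, DUSP5, SPRY2 and SPRED1), 3 had an interval below 1, against the 19.8% of expressed genes and 27.6% at matched level given above, and their median difference was -0.20. All 10 members had whole counts in both libraries, whereas 18.6% of expressed genes had a fractional count.

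PHLDA1, a pleckstrin homology-like protein induced by ERK, had 3147 counts (185 CPM) in the vector library and 2930 counts (174 CPM) in the PKP2 library. It lies on chromosome 12, 76025447 to 76033932. Its ratio was 0.941 (0.895 to 0.990), the smallest departure from 1 of the 6 genes with an interval below 1. Its relatives PHLDA2 and PHLDA3 were not lower, with ratios of 1.07 (0.943 to 1.205) and 1.14 (1.06 to 1.21). Once the trend with length and GC was taken out, PHLDA1 turned to 0.06 (ratio 1.04, 0.993 to 1.098). PHLDA2 then lay at -0.17 (ratio 0.891, 0.789 to 1.008) and PHLDA3 at 0.07 (ratio 1.05, 0.982 to 1.12). All of these intervals include 1.

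Summed over the 10 genes, the vector library held 18167 counts (1069 CPM) and the PKP2 library 16569 counts (986 CPM). DUSP4 alone made up 48.5% of the vector sum and 48.4% of the PKP2 sum. The ratio of the sums was 0.922 (0.903 to 0.942), the same to 3 digits as that of DUSP4. Without DUSP4 it was 0.923 (0.896 to 0.9502), and without DUSP4 and PHLDA1 it was 0.913 (0.881 to 0.947).

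By size, the differences were ordinary for these libraries. DUSP5 was the 1 member at least 1.2-fold lower, at 1.22-fold, and SPRY2 lay just inside at 1.19-fold. At this fold 13.1% of expressed genes were lower and 11% higher, so 1 of 10 lower and 0 of 10 higher is near the background. At 1.5-fold and at 2-fold 0 members were lower or higher, where 1.83% and 0.429% of expressed genes were lower and 2.15% and 0.577% higher.

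**Figure D2:**
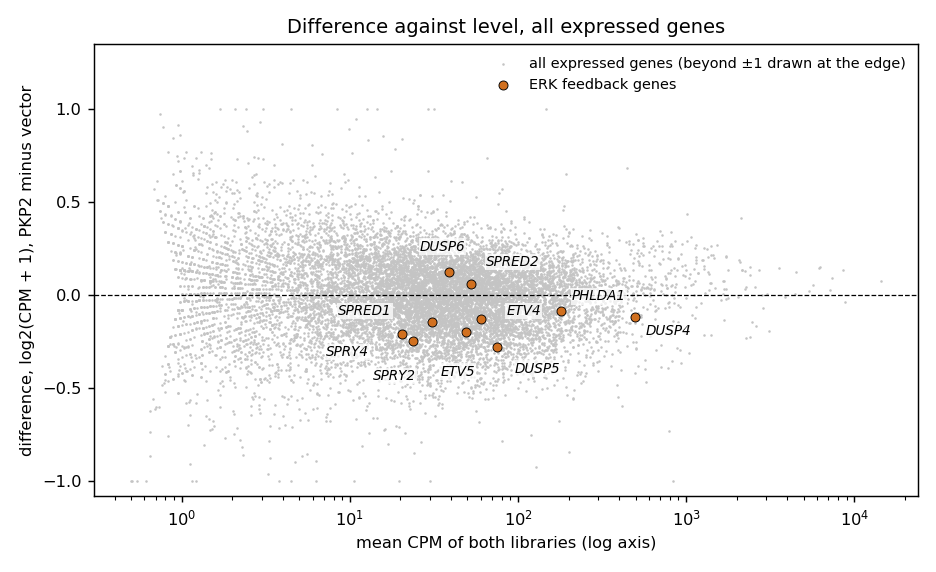
Difference in log2(CPM + 1), PKP2 minus vector, against mean CPM (log axis) for all expressed genes in grey and the 10 feedback genes in orange. The feedback genes sit within the grey cloud, from -0.28 for DUSP5 to 0.12 for DUSP6.

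Across the transcriptome the difference between the libraries ran with transcript length and GC content, and a fitted trend on these took up 30.2% of its variance among genes at a mean of 5 CPM or more. The feedback genes span lengths from 2429 nucleotides (ETV4) to 8069 nucleotides (PHLDA1), with a median of 4256, against 3725 over expressed genes. Removing the trend moved the shortest and the longest of them in opposite directions. DUSP5 (2557 nucleotides) moved from -0.28 to -0.39, SPRY2 (2708) from -0.24 to -0.30 and ETV4 from -0.13 to -0.26. The long transcripts went the other way: PHLDA1 moved from -0.09 to 0.06 and SPRED1 (7780) from -0.15 to 0.04. DUSP4 moved from -0.12 to -0.07, SPRY4 from -0.21 to -0.16, DUSP6 from 0.12 to 0.15, and ETV5 (-0.19) and SPRED2 (0.07) by 0.01 each. These lengths are of the longest transcript, and the trend was not refitted with another length. The median transcript of SPRED1 is 1177 nucleotides and that of PHLDA1 5913.

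With the trend removed, 6 of the 10 genes lay lower, as did 54.3% of genes with a trend value. Then 5 of the 10 had an interval below 1, against 15.8% of those genes, and 0 had one above, against 10.9%. At the feedback genes' range of level these shares were 21.0% and 12.7%. The 5 genes with an interval below 1 were DUSP4, DUSP5, SPRY2, ETV4 and ETV5, so PHLDA1 left the set and no gene entered it. The median of the 10 was then -0.12, against -0.02 over all expressed genes. The ratio of DUSP5 was 0.764 (0.705 to 0.826), that of SPRY2 0.809 (0.702 to 0.932) and that of ETV4 0.836 (0.766 to 0.913). DUSP6 had a ratio of 1.12 with an interval that still just includes 1.

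**Figure D3:**
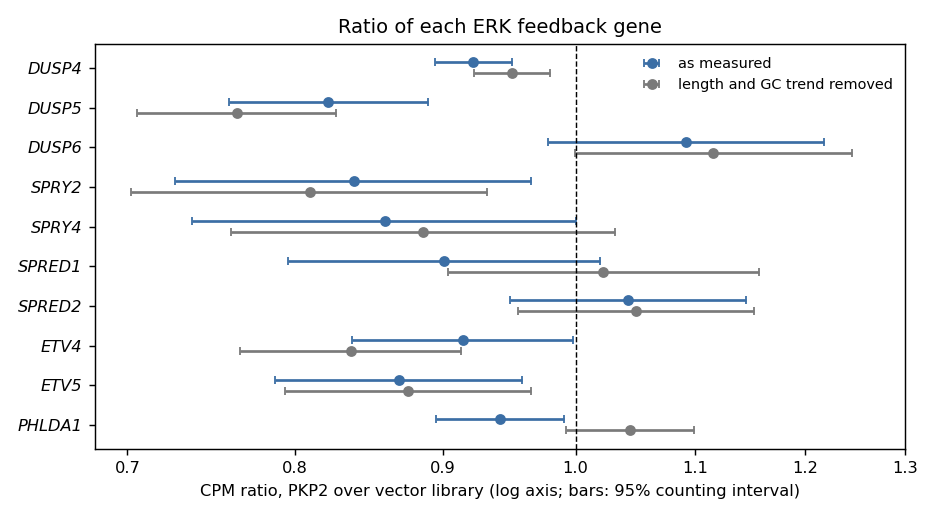
CPM ratio, PKP2 over vector (log axis), of each feedback gene as measured (blue) and after removal of the length and GC trend (grey), with 95% counting intervals; the dashed line marks equal levels. PHLDA1 and SPRED1 cross the line when the trend is removed, and DUSP5, SPRY2 and ETV4 move away from it.

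**Figure D4:**
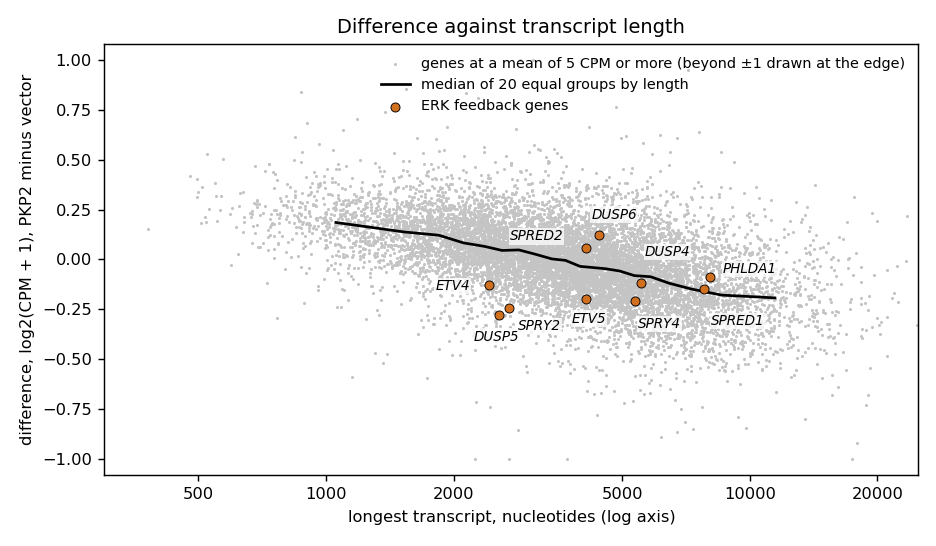
Difference in log2(CPM + 1), PKP2 minus vector, against the longest transcript (log axis) for genes at a mean of 5 CPM or more (grey), with the median of 20 equal groups by length (black line) and the feedback genes (orange). PHLDA1 and SPRED1 lie on or above the line, while ETV4, DUSP5 and SPRY2 lie below it.

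Levels of different genes were compared per kilobase of the longest transcript. In the vector library DUSP4 led with 93.5 CPM per kilobase, followed by DUSP5 with 32.0, ETV4 with 25.97 and PHLDA1 with 22.9 CPM per kilobase. These 4 had intervals that did not overlap. Intervals overlapped for ETV5 (12.7 CPM per kilobase) and SPRED2 (12.6), for SPRY2 (9.52) and DUSP6 (8.41), and for SPRED1 (4.15) and SPRY4 (4.09). Overlap alone does not show that levels are equal, and no interval was computed for the ratio of levels between genes. In the PKP2 library the first 4 kept their order, from 86.2 CPM per kilobase for DUSP4 to 21.6 for PHLDA1, but there the intervals of ETV4 (22.3 to 25.3) and PHLDA1 (20.8 to 22.4) overlapped. SPRED2 (13.1) then stood above ETV5 (11.03) and DUSP6 (9.18) above SPRY2 (7.97). The order depends on the transcript taken as the length: with the median length over a gene's transcripts, 9 of 10 genes took another rank and DUSP4 stayed first.

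The remaining MAP kinase phosphatases did not share a direction. Of 7 genes, 6 were expressed, with a median difference of 0.11, and 1 had an interval below 1 and 0 above, against 19.8% and 16.3% of all expressed genes. DUSP1, an immediate early nuclear phosphatase, had 421 CPM and 405 CPM, a ratio of 0.962 (0.930 to 0.994). DUSP7 and DUSP9, cytoplasmic ERK phosphatases like DUSP6, had ratios of 1.14 (0.982 to 1.34) and 1.103 (0.592 to 2.06), both with 1 inside the interval. Among phosphatases that prefer JNK and p38, DUSP16 had a ratio of 1.098 (0.993 to 1.21), DUSP8 of 1.13 (0.923 to 1.38) and DUSP10, which had a fractional count, of 0.842 (0.691 to 1.03). DUSP2, under 1 CPM in both libraries, had 5 and 6 counts. With the trend removed DUSP1 lay at -0.19 instead of -0.06, and DUSP16 had an interval above 1 (1.03 to 1.26).

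The remaining relatives of the Sprouty and SPRED genes were low in counts. SPRY1 had 122 and 107 counts, a ratio of 0.887 (0.678 to 1.16), and SPRED3 had 124 and 103 counts, a ratio of 0.840 (0.640 to 1.0997). SPRY3 had 23 and 20 counts. Of all 6 relatives, ETV1 and the PHLDA genes included, ETV1 had an interval below 1 and PHLDA3 one above. With the trend removed neither did, ETV1 lying at -0.15 instead of -0.32.

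Other genes read as ERK output spread to both sides. Of 19 expressed genes, 8 had an interval below 1 and 4 above, against 19.8% and 16.3% of all expressed genes, and the median difference was -0.04. At the feedback genes' range of level, in which not all of these genes lie, the shares were 27.6% and 20.2%. With the trend removed, described above, they were 21.0% and 12.7%. The immediate early factor EGR1 had 291 CPM (vector) and 217 CPM (PKP2), a ratio of 0.747 (0.716 to 0.780). EMP1, a membrane protein, had a ratio of 0.687 (0.606 to 0.778) and the EGFR ligand EREG one of 0.751 (0.719 to 0.785). SPHK1, which makes sphingosine phosphate, lay higher with 78 and 115 counts, a ratio of 1.49 (1.11 to 2.01). With the trend removed 11 had an interval below 1 and 1 above, against 15.8% and 10.9%. EGR1 then lay at -0.49 instead of -0.42, a larger difference. Those of EMP1, EREG and SPHK1 were smaller: -0.41 instead of -0.53, -0.30 instead of -0.41 and 0.34 instead of 0.49. The SPHK1 interval was then 1.001 to 1.82.

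The list for the cascade from receptor to ERK also held genes that act after ERK, such as RPS6KA3. Of its 22 genes, 12 had an interval below 1 and 3 above, with a median difference of -0.20. The shares over all expressed genes were 19.8% and 16.3%, and at the feedback genes' range of level 27.6% and 20.2%. EGFR had 259 CPM and 144 CPM, a ratio of 0.555 (0.528 to 0.584). The adaptor gene GAB1 had a ratio of 0.654 (0.503 to 0.848), the RAS activator SOS1 one of 0.761 (0.695 to 0.834) and RPS6KA3, a kinase that ERK activates, one of 0.782 (0.738 to 0.828). With the trend removed the median of this list was -0.05, with 9 intervals below 1 and 1 above, against 15.8% and 10.9% of genes. EGFR then lay at -0.70, GAB1 at -0.35, SOS1 at -0.19 and RPS6KA3 at -0.17.

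The list of 11 regulators held genes that act on the feedback genes or their proteins, or work with them as NF1 does. Of these, 4 had an interval below 1 and 2 above, against 19.8% and 16.3% of all expressed genes. At the feedback genes' range of level the shares were 27.6% and 20.2%. The median difference of the list was -0.08. CIC, the repressor of the PEA3 genes, did not differ detectably, at 191 CPM and 189 CPM with a ratio of 0.993 (0.945 to 1.04); it too was chosen with its value known. Its partners ATXN1L and ATXN1 had ratios of 0.797 (0.726 to 0.875) and 0.789 (0.632 to 0.982). CBL, a ubiquitin ligase bound by Sprouty, had a ratio of 0.783 (0.694 to 0.884) from a fractional count. TESK1, a kinase that binds Sprouty, lay higher, at 28.7 CPM and 38.4 CPM, a ratio of 1.34 (1.19 to 1.51). With the trend removed 3 had an interval below 1 and 1 above, against 15.8% and 10.9% of genes. TESK1 then lay at 0.26 instead of 0.41, ATXN1L at -0.21 instead of -0.32 and CBL at -0.17 instead of -0.34. ATXN1 lay at -0.15 instead of -0.31, with an interval of 0.705 to 1.096 that includes 1.

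**Figure D5:**
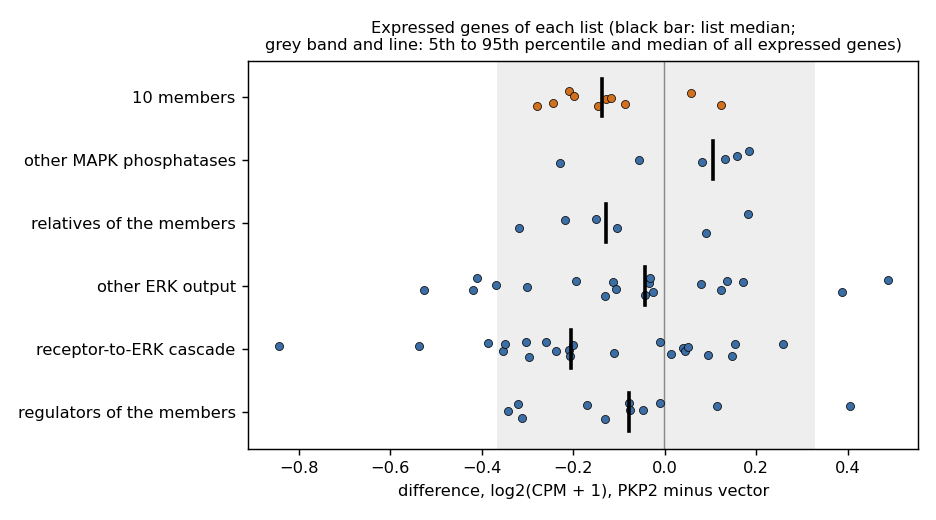
Difference in log2(CPM + 1), PKP2 minus vector, of each expressed gene in the feedback group and in 5 other lists, with black bars for list medians, a grey line for the median of all expressed genes and a grey band for their 5th to 95th percentile. All 10 feedback genes lie inside the band, while EGFR at -0.84 is the farthest outside it.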

How the data were processed

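The libraries analysed were 1 of A549 cells with the vector and 1 of A549 cells overexpressing PKP2. The labels' protocols name Trizol and a TruSeq kit. The deposited values are estimated counts per gene, by Entrez ID, not scaled to a common depth. Per the submitters' processing notes, the build was GRCh38.p12 and the tools named are HISAT2 2.0.4, Bowtie2 and RSEM 1.2.12. The strand setting, annotation and filters are not given in these sources.

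The counts were divided by the library total and multiplied by 1000000 (CPM). Genes reaching 1 CPM in either library were called expressed. Differences are of log2(CPM + 1), PKP2 minus vector, and understate those of genes near 1 CPM. Ratios have exact 95% Clopper-Pearson intervals from counts rounded to whole numbers, levels exact Poisson intervals, and ratios of 2 genes exact conditional intervals. All cover counting error only. No p-value was computed.

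Symbols came from RefSeq (GRCh38.p14), matching 16183 of 16399 IDs. Length and GC content of the longest transcript came from GENCODE release 29 and covered 98.8% of expressed genes. The length and GC trend was an additive lowess with a span of 0.3. Alternatives were another pseudocount (0.1 or 5), another filter (none, or a mean of 5 CPM), and scaling by the median or the trimmed mean (30% on the ratio, 5% on the level) of the log ratios. The calculation was tested on simulated data, with Python 3.11.15, SciPy 1.17.1 and statsmodels 0.14.6.

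The genes and lists were chosen with earlier results of these data known. Named are all members, the other phosphatases and relatives, PKP2, EGFR, and from each of 3 further lists the 4 genes at a mean of 5 CPM or more with the largest difference in size; EPCAM, VWF, COL1A1, DHX8, DGKG, NF1 and CIC fall outside this rule and were chosen with their values known. Protein sequences were not used here.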

Additional observations from a re-analysis of the deposited data

How the results depend on the processing

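The median difference of the 10 feedback genes stayed negative with another pseudocount (0.1 or 5) or filter (none, or a mean of 5 CPM), both other scalings and the removed trend, and the count of intervals below 1 stayed at 5 or 6. Scaling by the median log ratio left 5, since the ETV4 interval then includes 1. Scaling by the median or trimmed mean shifted all genes by under 0.01 on the log2 scale. Removing the length and GC trend reversed PHLDA1, to 0.063, and moved DUSP4 to -0.07 and SPRED1 to 0.04. It changed intervals above 1 to 1 among other phosphatases, 1 among ERK output genes, 1 in the cascade and 1 among regulators, and left 0 below and 0 above among relatives. Among members that overlap no other gene, an alternative added after the data were seen, 3 had an interval below 1. Members lower past the fold rule fell from 1 at 1.2-fold to 0 at 1.5-fold and 0 at 2-fold. With the median transcript length 9 members took another rank. No paired analysis was possible because each group has 1 library. The intervals of SPRY4, SPRED1, SPRED2 and DUSP6 include 1.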
